A study of Mus musculus with 2 samples.

Results

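The cytosolic ribosome is built from ribosomal RNA and ribosomal proteins (RPs), and 76 RP genes were followed here through the cells of a fetal mouse liver. They were chosen by symbol as Rpl or Rps followed by a number and at most a final a, x or y, with Rplp0, Rplp1, Rplp2 and Rpsa added, out of 27998 genes in the count tables. Of the 76 genes, 46 encode proteins of the large subunit and 30 encode proteins of the small subunit. The rule leaves out Rps3a1, the fusion gene Fau and the paralogs with longer symbols, which are given separately below. All 76 genes were detected in both libraries.

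RP mRNAs are among the most abundant mRNAs of growing cells, and each ribosome needs most of its proteins in equal numbers. Many RP mRNAs begin with a terminal oligopyrimidine (TOP) run, a stretch of C and T that couples their translation to growth signals. Red cell precursors divide while they build ribosomes, then make mostly globin and finally lose their nucleus and ribosomes, and inherited loss of 1 copy of several RP genes causes Diamond-Blackfan anemia, a failure of red cell production.

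The cells came from 1 wild-type C57BL/6 liver (C57BL/6J in the methods) at E12.5, sorted by flow cytometry to remove debris, dead cells and doublets. Droplet-based scRNA-seq was run on 2 technical replicate libraries, so the spread between them is technical and no test between animals was possible. The series description speaks of 2 suspensions, and the methods of 1 liver. The cell types of the deposited table were used as named there: HPSC (hematopoietic stem and progenitor cells), Ery (erythroid-committed progenitors), Eryb (erythroblasts), EryP, Mk (megakaryocytes), G (granulocytes), Mo/KC (monocytes and Kupffer cells), Hepa (hepatoblasts) and EC (endothelial cells). The table divides Ery and Eryb further into Ery 1 to Ery 6.

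Library 1 held 5480 kept cells with 51969226 unique molecular identifiers (UMIs, tags that each mark 1 captured RNA molecule), and library 2 held 5057 cells with 62738015 UMIs. Kept cells had at least 504 UMIs in library 1 and at least 4387 in library 2, and 31 barcodes occurred in both. Of 50 pairs of a cell type marker and a library, 46 were highest in the named cell type, where Klf1, Rhd and Gata1 marked Ery and Eryb together. Klf1 in library 1 and Rhd in both were highest in Eryb. The exceptions were Myb, highest in G, and Gata1, highest in Mk, in both libraries. A share is given as the percentage of UMIs summed over the cells of a group. Exact binomial 95% confidence intervals cover counting error only, since cells are not replicates.

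The coding sequences of Rpl41 and Rpl39, the shortest members and those furthest above the RP sum below, are shown here, read from the GENCODE vM21 transcripts of mouse build GRCm38 with the start and stop codons in capitals. Rpl41, at chr10:128548114-128549305 on the minus strand, encodes 25 residues in 78 coding nt. Rpl39, at chrX:37082520-37085402 on the minus strand, encodes 51 residues.
Rpl41: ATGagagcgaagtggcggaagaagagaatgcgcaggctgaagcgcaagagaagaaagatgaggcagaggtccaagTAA
Rpl39: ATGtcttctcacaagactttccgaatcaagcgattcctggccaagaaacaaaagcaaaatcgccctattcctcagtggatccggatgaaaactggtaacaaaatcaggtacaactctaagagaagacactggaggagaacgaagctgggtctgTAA

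RP mRNA made up over 25% of all molecules in stem cells and erythroid progenitors and only a few percent in late erythroblasts. The summed RP share was 27.0% (95% confidence interval 26.9 to 27.0%) in HPSC of library 1 and 29.3% (29.3 to 29.4%) in library 2. In Ery it was 25.7% and 27.3%, and in Eryb 10.8% and 8.22%. EryP, whose cells carry the embryonic globins Hba-x, Hbb-y and Hbb-bh1, had the lowest shares, 3.70% and 3.22%. HPSC, Ery and Hepa had the highest shares, in that order, in both libraries, and Eryb and EryP the lowest.

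The other types lay between, at 22.3% and 25.9% in Hepa, 20.6% and 22.4% in Mo/KC and 19.99% and 22.6% in G. Mk had 19.1% and 22.6%, and EC had 18.8% and 23.0%. EC ranked below Mo/KC, G and Mk in library 1 and above them in library 2, so the order of Mo/KC, G, Mk and EC was not stable between libraries. Every type outside Eryb and EryP had the higher share in library 2, including Ery, and the difference between HPSC and Ery was only 0.07 and 0.10 on the log2 scale.

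**Figure D1:**
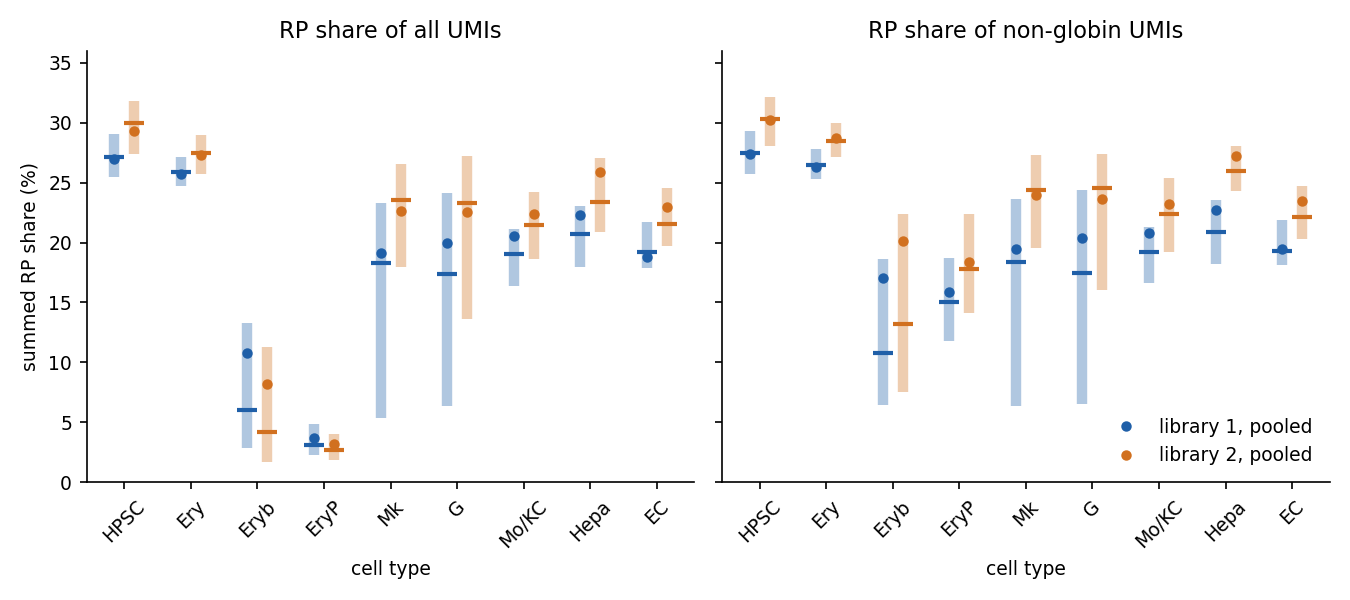
Summed RP share by cell type in library 1 (blue) and library 2 (orange), as a percentage of all UMIs (left) and of UMIs other than globin (right). Points are pooled UMIs, dashes the median cell and bars the middle 50% of cells. HPSC and Ery lie highest in both panels, and EryP, at 3.70% and 3.22% of all UMIs, reaches 15.9% and 18.4% of non-globin UMIs.

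Globin transcripts take up much of the count in red cells, and a share of all UMIs is lower wherever globin is higher. The 7 globin genes held 36.7% of Eryb UMIs in library 1 and 59.2% in library 2, and 76.7% and 82.5% of EryP UMIs. As a share of the remaining UMIs, RP mRNA made up 17.1% and 20.2% in Eryb and 15.9% and 18.4% in EryP, against 26.3% and 28.7% in Ery. The difference between EryP and Eryb was thus −1.54 and −1.35 on the log2 scale for all UMIs and −0.10 and −0.13 for non-globin UMIs. Eryb stayed below Ery on both scales, by −1.25 and −1.73 for all UMIs and by −0.63 and −0.51 for non-globin UMIs.

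Within G and Mk the RP share spanned a wide range. G cells in which the UMIs of Mpo, Elane, Prtn3 and Ctsg, genes of early granules, exceeded those of Ngp, Camp, Ltf, S100a8 and S100a9, expressed late, had an RP share of 24.5% (69 cells) in library 1 and 26.4% (68 cells) in library 2. G cells in which the late genes exceeded the early ones had 11.8% (87 cells) and 15.5% (62 cells). The RP share of G thus differed between cells with early and late granule mRNAs in both libraries, and the median depth of the late cells was lower, 5934 against 18315 UMIs in library 1 and 10243.5 against 18646 in library 2. Among Mk cells of library 1, the 35 cells below 4387 UMIs had 9.74% and the 44 deeper cells 20.1%. Library 2 held no Mk cell below that depth.

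From Ery 1 to Ery 6 the RP share was lower in both libraries, and most of the difference lay between Ery 2 and Ery 5. Ery 1, with 375 cells in library 1 and 359 in library 2, had an RP share of 25.6% and 27.6%. Ery 2 had 25.9% and 27.0%, and Ery 3 had 20.8% and 20.3%. Ery 4 (1357 and 1202 cells) had 9.49% and 8.20%. Ery 5 had 2.90% and 2.03%, and Ery 6 (1218 and 1176 cells) had 3.204% and 1.97%. Ery 2 lay slightly above Ery 1 in library 1 and below it in library 2, both libraries put Ery 3 and Ery 4 next, and Ery 6 lay above Ery 5 in library 1 and slightly below it in library 2.

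Without globin UMIs the same course ran from 25.9% and 28.3% in Ery 1 through 26.7% and 29.1% in Ery 2 to 24.7% and 28.4% in Ery 3. It then stood at 14.9% and 19.2% in Ery 4, 5.93% and 7.62% in Ery 5 and 7.64% and 9.16% in Ery 6. On this scale Ery 3 was close to Ery 1, and Ery 6 was above Ery 5 in both libraries. The difference of Ery 6 from Ery 1 was −3.0 and −3.81 on the log2 scale for all UMIs and −1.76 and −1.63 for non-globin UMIs.

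The median cell held 6669 and 7176 RP UMIs in Ery 1, 500 and 705 in Ery 4 and 118 and 123 in Ery 6. The other non-globin UMIs of the median cell were 19151 and 18488 in Ery 1 and 1664 and 1472 in Ery 6. RP molecules per cell were thus lower by a larger factor than other non-globin molecules. A median Ery 6 cell showed 54 and 55 of the 76 members with at least 1 UMI. Cells with at least 3600 UMIs were then thinned to that number. This left 981 of 1218 Ery 6 cells in library 1 and all 1176 in library 2. After thinning, 50 and 36 members were seen in the median Ery 6 cell, against 75 in Ery 1 in both libraries. Thinning was on all UMIs, of which globin took 58.1% and 78.5% in Ery 6 and 1.07% and 2.37% in Ery 1. The thinned cells thus did not have like numbers of non-globin UMIs.

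**Figure D2:**
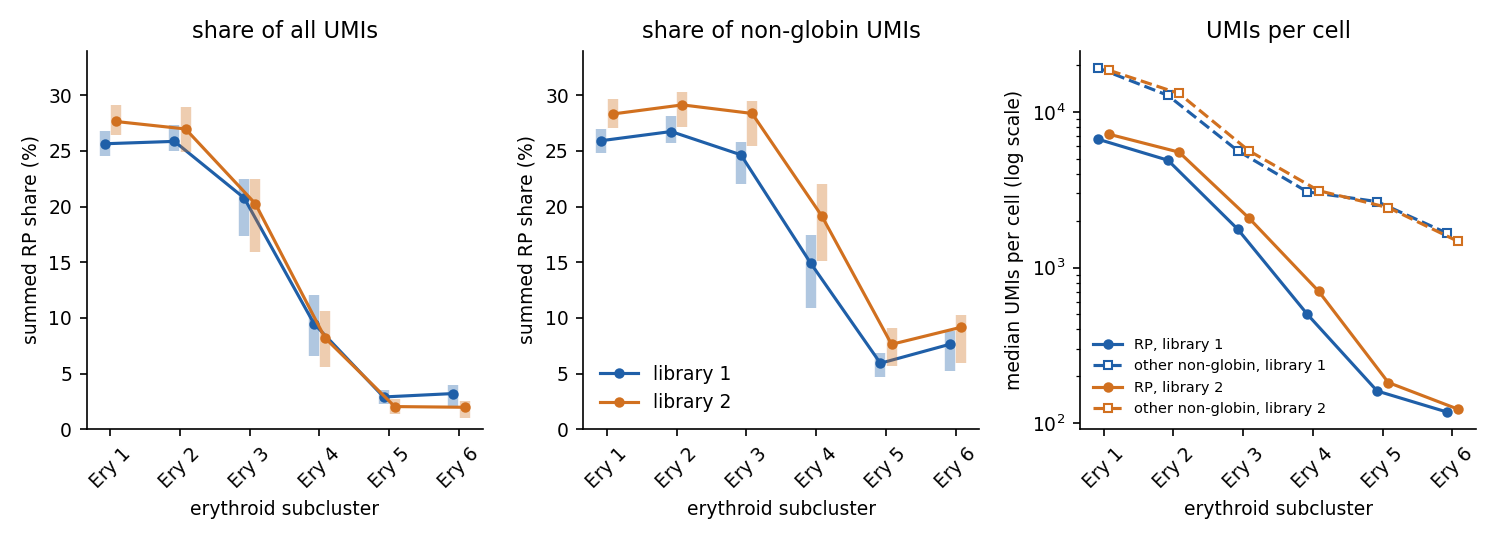
RP share of all UMIs (left) and of non-globin UMIs (middle), and median UMIs per cell on a log scale (right), over Ery 1 to Ery 6 in library 1 (blue) and library 2 (orange). Points are pooled shares or medians and bars the middle 50% of cells. The share of all UMIs runs from 25.6% and 27.6% in Ery 1 to 3.204% and 1.97% in Ery 6, and RP UMIs per cell run further down than other non-globin UMIs.

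Ordering the cells named Ery or Eryb by their share of adult globin UMIs, without use of Ery 1 to Ery 6, also gave a course from high to low RP share. In 10 equal groups, the RP share of non-globin UMIs was 26.0% and 28.5% in the group lowest in globin and 5.86% and 6.50% in the group highest in globin. The group of rank 5 had 17.3% and 19.6%. The share became lower at every step after the group of rank 2 in both libraries, whereas on this scale Ery 6 lay above Ery 5. The median adult globin share of the group of rank 5 was 31.3% in library 1 and 55.9% in library 2, so groups of like rank did not have like globin shares in the libraries.

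Barcodes with 1 to 50 UMIs were taken as a measure of free RNA and had an RP share of 17.3% in library 1 and 12.499% in library 2, above that of Ery 5, Ery 6 and EryP. Any free RNA in their droplets adds RP UMIs to them. In library 2 the level of Ybx1 in Ery 6 allowed at most 3.26% of its UMIs to come from this profile, which is at most 20.6% of its RP UMIs. In library 1 the corresponding limit was 0.155%. This low limit rests on Rps18-ps3. In library 1, 7 of the 476 genes with at least 500 UMIs in the low-UMI barcodes had more UMIs there than in all kept cells. No such gene was found among 358 in library 2. The 7 genes include Irx2, Cd74 and S100a6. They also include Rpl13a-ps1, Rpl7a-ps3 and Rps18-ps3, copies of the members Rpl13a, Rpl7a and Rps18. The limit of library 1 therefore holds only for that profile as a whole.

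All 76 members had a share of all UMIs at least 2-fold lower in Ery 6 than in Ery 1 in both libraries. Of all 6538 genes compared, 76.4% met the same limit. No member (0 of 76) was at least 2-fold higher, against 5.22% of all genes. The globin share was 58.1% and 78.5% in Ery 6. On the non-globin scale 68 of the 76 members were at least 2-fold lower, against 53.1% of all genes, and 0 were at least 2-fold higher, against 15.2% of all genes. The median over all genes was −1.29 and −1.26 on the log2 scale, and the RP sum was −1.76 and −1.63. The 8 members within 2-fold in at least 1 library were Rpl41, Rpl39, Rps29, Rplp2, Rpl38, Rpl21, Rpl7 and Rpl23a.

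To see which members departed from the others, each member's share of the RP sum was compared between Ery 6 and Ery 1. Of the 76 members, 17 departed from the sum at least 1.5-fold in both libraries, 9 upward and 8 downward, against 68.3% of all genes measured on the same ratio. Genes with as few as 100 UMIs in the compared groups were included there, so counting error is larger for some of them than for the members. The members also make up the RP sum, so their departures balance around it, whereas those of other genes need not. The median gene stood at −1.29 and −1.26 on the non-globin scale, above the −1.76 and −1.63 of the sum. The count of members and the 68.3% are therefore not like measures. The 9 members that departed upward held 9.80% of RP UMIs in Ery 1 and 17.2% in Ery 6 of library 1, and 9.37% and 17.1% in library 2. The 8 that departed downward held 12.6% and 7.37% in library 1, and 13.0% and 7.46% in library 2. The 59 others held 77.6% in Ery 1 in both libraries and 75.5% in Ery 6 in both. Over the 76 members, the departures of the libraries correlated with r = 0.98, where both libraries share the liver, the gene models and the cluster names. Among cells with at least 1000 genes and under 10% mitochondrial UMIs, 12 members departed rather than 17. Rplp0, Rpl7, Rpl38, Rpl12 and Rpl13a were then within the limit. This filter left 177 Ery 6 cells in library 1 and 134 in library 2.

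Rpl41, a short basic peptide of the large subunit and the smallest member, departed furthest. It made up 0.754% of RP UMIs in Ery 1 and 2.26% in Ery 6 of library 1, and 1.16% and 3.29% in library 2. Its share of the RP sum was 2.99-fold and 2.84-fold higher in Ery 6 (log2 1.58, interval 1.53 to 1.63, and 1.51, interval 1.47 to 1.55, from counting error). On the non-globin scale its level was −0.18 and −0.12 on the log2 scale relative to Ery 1, beside −1.76 and −1.63 for the RP sum.

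Rpl39, another short protein of the large subunit that lies near the exit tunnel, followed. It made up 0.545% and 0.462% of RP UMIs in Ery 1 and 1.23% and 1.07% in Ery 6. Its departure was 1.17 and 1.21 on the log2 scale. Rps29, a zinc-binding protein of the small subunit and the only small subunit member to depart upward, made up 0.413% and 0.310% in Ery 1 and 0.915% and 0.674% in Ery 6. Its departure was 1.15 and 1.12. These are the 3 members with the shortest coding sequences.

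The acidic stalk, where translation factors bind the large subunit, is formed by Rplp0, Rplp1 and Rplp2. Rplp2 departed by 0.83 and 0.84, from 0.778% and 0.904% of RP UMIs to 1.38% and 1.62%. Rplp0 departed by 0.59 and 0.62, from 3.67% and 2.26% to 5.52% and 3.46%. Rplp1 departed by 0.14 and 0.21, within the limit, so the stalk members differed from each other.

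The other members that departed upward belong to the large subunit. Rpl38 departed by 0.75 and 0.87, Rpl21 by 0.72 and 0.70, Rpl7 by 0.66 and 0.67 and Rpl23a, at the exit tunnel, by 0.64 and 0.72. Just outside the limit, Rps24 departed by 0.55 and 0.59.

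Rpl5, which binds the 5S ribosomal RNA together with Rpl11, departed furthest downward in library 1, and Rps18 did in library 2. Rpl5 made up 0.930% and 0.829% of RP UMIs in Ery 1 and 0.424% and 0.414% in Ery 6, a departure of −1.13 (interval −1.24 to −1.03) and −1.0 (interval −1.10 to −0.90). Rpl11, its partner, departed by −0.07 and −0.09, so these binding partners did not depart together. Rps18, a protein of the small subunit head, made up 1.86% and 2.58% in Ery 1 and 0.973% and 1.16% in Ery 6, a departure of −0.93 and −1.15.

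Rpl18 departed by −0.84 and −0.85 and Rpl14 by −0.72 and −0.73. Rpl12, at the base of the stalk, departed by −0.66 and −0.67, Rpl13a by −0.66 and −0.62 and Rpl30 by −0.60 and −0.78. The members that departed downward thus came from both subunits, 6 from the large and 2 from the small. The ratio of large to small subunit UMIs was 1.43 and 1.26 in Ery 1 and 1.53 and 1.41 in Ery 6.

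**Figure D3:**
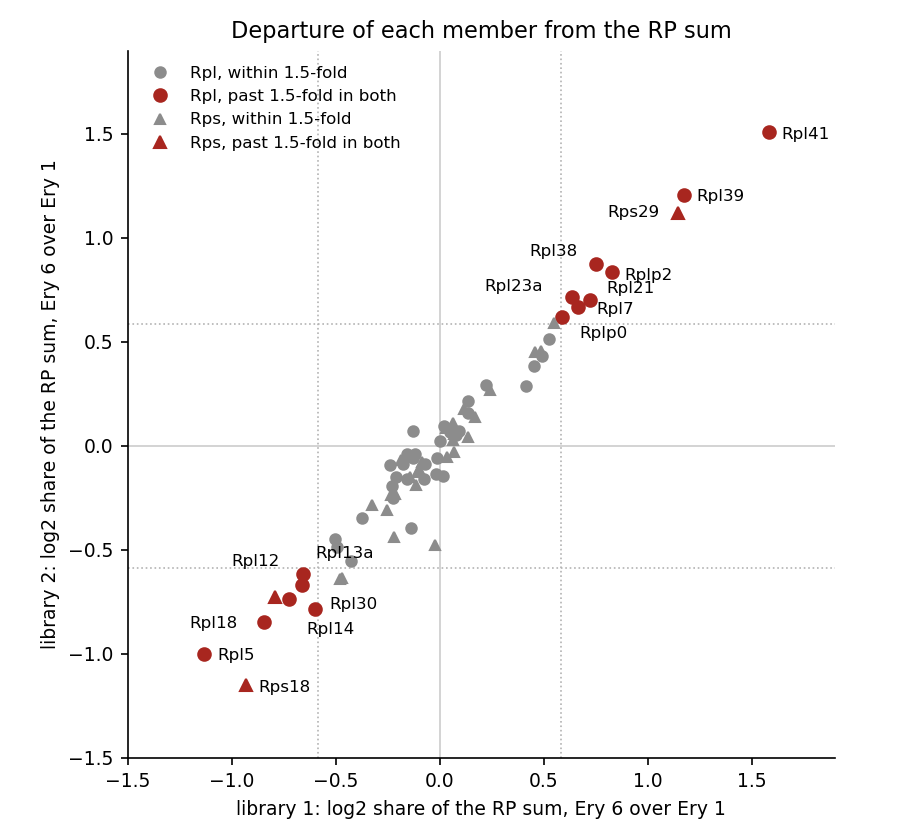
Log2 ratio of each member's share of the RP sum in Ery 6 to that in Ery 1, in library 1 (horizontal) and library 2 (vertical), for 46 Rpl genes (circles) and 30 Rps genes (triangles). Dotted lines mark 1.5-fold. The 9 members at the upper right and 8 at the lower left pass the limit in both libraries, with Rpl41 at 1.58 and 1.51.

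The departures appeared step by step. The SD of the 76 log2 ratios to Ery 1 was 0.07 and 0.06 in Ery 2, 0.16 and 0.14 in Ery 3, 0.33 and 0.31 in Ery 4, 0.50 and 0.53 in Ery 5 and 0.48 and 0.50 in Ery 6. These ratios share the Ery 1 cells of their library. Rpl41 made up 0.869% and 1.28% of RP UMIs in Ery 3, 1.35% and 1.89% in Ery 4 and 2.17% and 3.28% in Ery 5. Rpl5 made up 0.785% and 0.718% in Ery 3, 0.543% and 0.515% in Ery 4 and 0.446% and 0.356% in Ery 5. In both directions the shares of these members in Ery 5 were close to those in Ery 6.

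**Figure D4:**
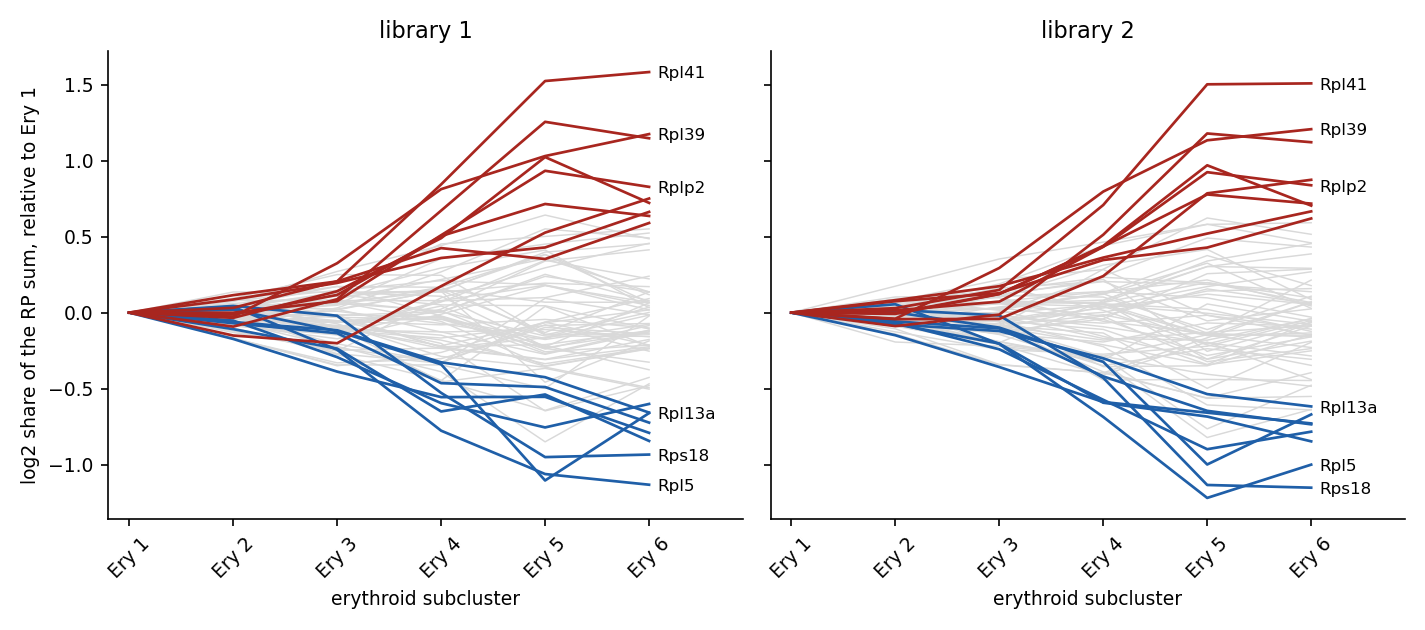
Log2 share of the RP sum relative to Ery 1 over Ery 1 to Ery 6 for each of the 76 members in library 1 (left) and library 2 (right). Red lines are the 9 members that departed upward in Ery 6, blue lines the 8 that departed downward and grey lines the other 59. The lines spread from Ery 3 on and reach most of their range by Ery 5.

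Free RNA held 0.777% and 1.16% Rpl41 among its RP UMIs, close to the 0.754% and 1.16% of Ery 1 and below the 2.26% and 3.29% of Ery 6. It held 1.12% and 0.905% Rpl5, above the 0.930% and 0.829% of Ery 1 and the 0.424% and 0.414% of Ery 6. For Rpl41 and Rpl5 the composition of free RNA was thus nearer to Ery 1 than to Ery 6. Over all 76 members, the log2 ratios of free RNA to Ery 1 had an SD of 0.32 and 0.16. They correlated with those of Ery 6 at r = 0.03 and 0.37, where both share the Ery 1 cells.

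Coding length was compared with the departures, as the 3 shortest members had departed furthest upward. Over the 76 members, Pearson's r was −0.38 in library 1 and −0.29 in library 2, and Spearman's rho was −0.33 and −0.22. Without Rpl41, Rpl39 and Rps29, r was −0.24 and −0.13 over 73 members. These correlations are across genes measured in the same cells and are given as a description. The median coding length was 348 nt in the 9 members that departed upward, 532.5 nt in the 8 that departed downward and 447 nt in the 59 others. Rplp0, with 954 nt, departed upward, so the upward group was not made of short members alone. Under the filter for genes and mitochondrial UMIs, however, Rplp0 and Rpl7 (813 nt) were within the limit. Of the members next in length, Rpl38 (213 nt) departed upward and Rps21 (252 nt) stood at 0.46 and 0.45, within the limit. Rps28 (210 nt) stood at −0.02 and −0.48 and Rps27 (255 nt) at −0.22 and −0.44.

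**Figure D5:**
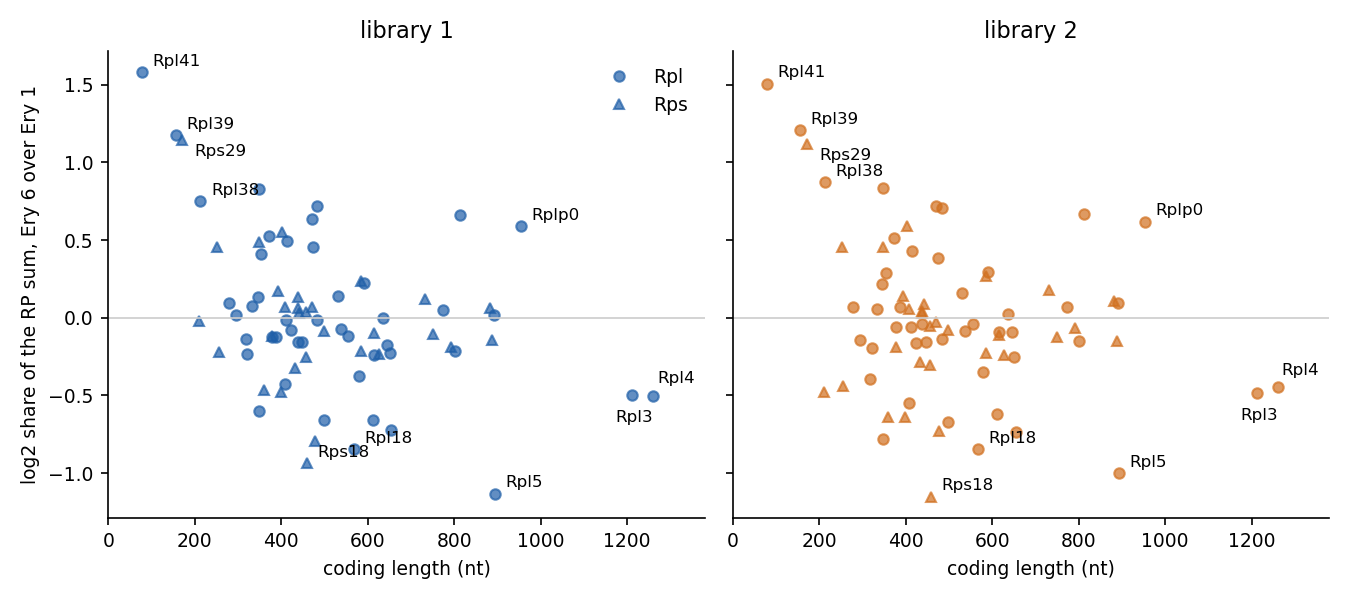
Coding length in nt (horizontal) against the log2 ratio of each member's share of the RP sum in Ery 6 to that in Ery 1 (vertical), in library 1 (left) and library 2 (right), with Rpl genes as circles and Rps genes as triangles. Rpl41, Rpl39 and Rps29, with 78, 156 and 171 nt, lie highest, and r over the 76 members is −0.38 and −0.29.

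The start of the mRNA was examined next, because a TOP run is shared by many members. RefSeq promoters of GRCm38.p6 matched 56 of the 76 members with 66 promoters. A run was defined as C followed by at least 5 further C or T, within 15 bases on either side of the annotated start. On the strand matching the mRNA, it was present in 34 of the 66 member promoters (51.5%) and in 22.5% of all 32851 promoters. It was present in 3 of the 5 matched members that departed upward, 5 of the 6 that departed downward and 25 of the 45 others. The windows of 30 bases are shown for members that departed each way, with the run in capitals.
Rpl38, chr11:114668565-114668594 (+): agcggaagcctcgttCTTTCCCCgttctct
Rplp2, chr7:141447636-141447665 (+): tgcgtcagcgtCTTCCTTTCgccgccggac
Rpl41, chr10:128549154-128549183 (−): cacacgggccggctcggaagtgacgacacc
Rps18, chr17:33955651-33955680 (−): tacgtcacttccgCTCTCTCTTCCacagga
Rpl18, chr7:45718056-45718085 (+): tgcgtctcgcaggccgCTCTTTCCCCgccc
Rpl14, chr9:120571502-120571531 (+): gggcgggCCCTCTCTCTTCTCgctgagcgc

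Rpl38 and Rplp2, which departed upward, and Rps18, Rpl18 and Rpl14, which departed downward, all carry the run. The window of Rpl41 holds no match, which says only that these letters are not in it. A match is a description of the annotated sequence and not evidence that the start is used in these cells.

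Among the cell types taken whole, the makeup of the RP sum stood apart only in EryP by the 1.5-fold limit. Eryb joins Ery 3 to Ery 6, and Ery 3 and Ery 4 held most of its RP UMIs. Of the 76 members, 8 lay at least 1.5-fold from their median share over the 9 types in some type in both libraries, against 82.5% of 5552 genes, and all 8 did so in EryP. Some of the 5552 genes had as few as about 100 UMIs over all types, far fewer than any member. Counting error alone can therefore take such genes past the limit in a type with few cells. The members also make up the sum they are measured against, so their count and the 82.5% are not like measures. In each of the other 8 types 0 members passed the limit in both libraries, and the farthest member, by the library nearer to the median, was 0.50 from it on the log2 scale in Eryb, 0.40 in Hepa and 0.38 in Mk. EryP had the fewest RP UMIs of all types, 35483 in library 1 and 31054 in library 2.

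In EryP, Rpl3, a core protein near the catalytic center, made up 0.893% and 0.718% of RP UMIs, against medians of 1.91% and 1.75% over the types. Rps25 (0.383% and 0.509%), Rps18 (1.01% and 1.38%) and Rpl10 (1.01% and 0.506%) were also lower, by 0.75 to 1.01 on the log2 scale. Rpl41 made up 1.85% and 2.48%, Rpl39 1.09% and 1.02%, Rpl23a 1.34% and 2.77% and Rplp0 6.25% and 3.67%, each higher. These 8 values are against the median type, whereas the Ery 6 values above are against Ery 1. Set against Ery 1 as well, the 76 log2 ratios of EryP had an SD of 0.45 and 0.47, beside 0.48 and 0.50 in Ery 6. They correlated with those of Ery 6 at r = 0.75 and 0.73, where both share the Ery 1 cells. Rpl3 stood at −0.49 and −0.48 in Ery 6 against Ery 1, and at −1.09 and −1.28 in EryP against the median type. Rpl13a, which departed downward in Ery 6, made up 3.196% and 3.07% in EryP, above the 2.63% and 2.60% of Ery 1.

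The libraries counted some members differently. In Eryb, the share of the RP sum differed more than 1.5-fold between libraries for 9 of the 76 members, and the median difference over the 76 was 0.18 on the log2 scale. No share over all genes was set beside this count, so the count is not read as particular to RP genes. Rpl35 made up 0.738% of RP UMIs over all cells of library 1 and 0.114% of library 2, a difference of −2.74 in Eryb. Rpl15 (−1.16), Rplp0 (−0.76), Rpl13 (−0.69) and Rpl10 (−0.66) were also lower in library 2. Rps28 (1.16), Rpl23a (0.99), Rplp1 (0.69) and Rpl36 (0.59) were higher in library 2.

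For each of these 9 members the difference had the same sign in all 9 cell types, with Rpl35 between −2.77 and −2.09 and Rpl23a between 0.93 and 1.05. The difference was thus between libraries and not between cell types. RP genes have many processed pseudogenes, and 73 of the 76 members had at least 1 copy in the annotation with 95% identity or more over 80% or more of the coding sequence, 563 copies in all. The count tables list 38 of these copies, for 27 members, and all 9 members above are among the 27. The matrix header of library 1 names software version 3.0.0, whereas the submitters' notes name Cell Ranger 2.1.1. The part of the software in these differences was not tested.

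Adding the listed copies did not bring the 9 members together. Rpl35 with its 3 listed copies differed by −2.66 and Rpl15 with its copy by −1.23. Rpl41 behaved otherwise. Its copy Gm10076, identical over the coding sequence, held 17230 Eryb UMIs in library 1 and 654 in library 2, and the difference of Rpl41 between libraries was 0.56 without and −0.07 with it. With listed copies added, the departure of Rpl41 in Ery 6 was 1.59 and 1.51. That of Rplp0 was 0.58 and 0.62 and that of Rpl23a 0.64 and 0.71. These departures within a library were thus close to those without the copies. Rplp0 in library 1 was then just under the 1.5-fold limit.

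The members differed widely in abundance, and they were ranked by their UMIs summed over both libraries. Rplp0 had the most, 602352, with 367340 in library 1 and 235012 in library 2, where Rps2 had more at 324784, and Rps2, Rpl13 and Rpl13a were also among the 5 highest. Rps28 had the fewest, 33358, with 9902 in library 1 and 23456 in library 2, where Rpl35 was lowest at 11359. In the sum it was followed by Rpl38, Rps21, Rps27 and Rpl36. A UMI counts 1 molecule whatever its length. Copies of near-identical sequence may lower the count of some members, which was not tested. The levels of single members are therefore not compared further.

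Of the 20 members mutated in Diamond-Blackfan anemia, 19 were at least 2-fold lower in Ery 6 than in Ery 1 on the non-globin scale, with a median of −1.81 and −1.69, and Rps29 was not. This share is near that of all members, 68 of 76, and 53.1% of all genes met the limit. Rpl5 was lowest of these at −2.89 and −2.63, and Rps19, the gene most often mutated in the disease, was at −1.70 and −1.60. Of 13 members of the small subunit head, 12 were at least 2-fold lower, again near the share of all members, with Rps29 outside. Of the RP genes outside the rule, Rps3a1 was at −1.58 and −1.38, Rpl22l1 at −1.28 and −1.32, Rps27l at −2.21 and −2.18 and Fau at −1.60 and −1.68.

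Genes that make ribosomes were lower in Ery 6 by more than the ribosomal proteins. Of 42 ribosome biogenesis genes compared, 40 were at least 2-fold lower on the non-globin scale and 0 higher, with a median of −3.48 and −3.66. Npm1, a nucleolar chaperone, stood at −4.22 and −4.34, Ncl, the nucleolar protein nucleolin, at −3.97 and −3.71 and Fbl, which methylates ribosomal RNA, at −3.14 and −3.56. Sbds, which helps release a factor from new large subunits, stood at 0.30 and 0.10. Of 76 subunits of the mitochondrial ribosome, 69 were at least 2-fold lower, with a median of −2.24 and −2.22.

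Counts for translation factors are read against all genes, of which 53.1% were at least 2-fold lower and 15.2% higher on this scale. Of 6 elongation factors, 4 were at least 2-fold lower and 0 higher, with Eef1a1 at −2.04 and −1.84 and Eef1d at 0.85 and 0.94. Of 27 initiation factors, 17 were lower and 2 were higher, Eif5 at 2.85 and 2.84 and Eif5b at 1.46 and 1.47, and these counts are near the shares of all genes. Eif5 and Eif5b act late in initiation, when the start codon is chosen and the subunits join.

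The next lists are small, and their counts do not stand far from the same background of 53.1% lower and 15.2% higher. Of 7 other mRNAs known to carry a TOP run, 5 were at least 2-fold lower and 1, Pabpc1, which encodes a poly(A)-binding protein, was higher at 2.61 and 2.55. Tpt1 was at 0.63 and 0.71. Of 11 genes of ribosome rescue and recycling, 5 were lower and 1 was higher, Gtpbp2 at 3.48 and 3.75. Pelo and Hbs1l, which free stalled ribosomes, stood at −0.40 and −0.21 and at 0.90 and 0.79. Of 8 regulators, 3 were lower, including Myc at −3.63 and −3.72 and Eif4ebp1 at −2.34 and −2.39, and 1 was higher, Larp1, which binds TOP mRNAs, at 1.19 and 1.13.

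The profile most like that of the RP sum was sought over 13 groups (Ery 1 to Ery 6 and the 7 types other than Ery and Eryb), among 4345 other genes that reached at least 50 CPM in a group of each library. Gnb2l1, which encodes RACK1, a protein bound to the small subunit, came first with r = 0.996 and 0.998 on log2(CPM + 1). It had 2760 and 2727 CPM in Ery 1 and 186 and 107 CPM in Ery 6. Next came Gm9493, the elongation factor genes Eef1a1 and Eef1b2, and Mrps15, a subunit of the mitochondrial ribosome. Gm9493 is a copy of the member Rps7, with 99.5% identity over 97.4% of the coding sequence, so its profile is not independent of the members. Of the 4345 genes, 1083 had r above 0.9 in both libraries, so a like profile was common. The member least like the sum was Rpl41, with r = 0.957.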

How the data were processed

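The authors deposited UMI counts (whole numbers, not normalized) for each gene in each barcode of 2 libraries from 1 liver, and a table of cell types and clusters. Cell cycle score columns that the authors deposited in that table were not used. Per the submitters' processing notes, bcl2fastq 2, Cell Ranger 2.1.1 and Seurat 3.2.0 were used with mm10, whereas the matrix header of library 1 names version 3.0.0. Doublets were removed by sorting before encapsulation, and no caller was run here.

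UMIs were summed per group and library and divided by all UMIs or by non-globin UMIs. A call was a fold past a limit in both libraries (2-fold for levels, 1.5-fold for shares of the RP sum) over genes with at least 100 UMIs in the compared groups. With 1 liver, no test was made. Intervals are exact at 95%. The fold measures were tested on simulated data. Copies were found with BLAST. The software was scipy 1.17.1 and numpy 2.4.6 in Python 3.11.15, with matplotlib 3.10.9 for plots and pandas 2.3.3 for tables.

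Members and lists were chosen with earlier results of these data known. Genes were named by fixed rules: the 8 highest and 8 lowest departures, members past 1.5-fold in a cell type or between libraries, the 5 highest and 5 lowest members, and listed genes past 2-fold or paralogous to a member. Values of listed genes within 2-fold, Rpl11, Rplp1, Rps19 and Rps24 were chosen after they were seen, as were the departures of Rps21, Rps27 and Rps28. The values of some genes that these rules name are not reported here. Alternatives were other denominators, the median cell, cell filters, thinning to 3600 UMIs, other member sets, subtraction of 10% free RNA and each library alone. A common minimum of 4387 UMIs was added after seeing the data.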

Additional observations from a re-analysis of the deposited data

Results flagged for a closer look

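Barcodes that were not called as cells but held at least 1000 UMIs and 200 genes carried RP UMIs outside the cells described above. Their median RP share was 8.62% in library 1 (168 barcodes) and 14.7% in library 2 (3311 barcodes). These barcodes carry no cell type name, and their source was not tested.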

How the results depend on the processing

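No paired analysis was possible because the libraries form 1 group without any test. No difference changed sign under these alternatives, and 93 of 121 alternative values moved by less than the spread between libraries or, for counts, by at most 1.5-fold. The median cell without globin UMIs, where EryP lay above Eryb, was not among the alternatives. The 93 include each library alone. For shares, a library alone could not move by more than this spread, because the main value is the mean of the libraries. Leaving out globin UMIs, or globin and mitochondrial UMIs, moved the log2 difference of Eryb from Ery from −1.49 to −0.57 and −0.54, of Ery 6 from Ery 1 from −3.41 to −1.70 and −1.68 and of EryP from Eryb from −1.45 to −0.12 and −0.15. The median cell moved Eryb against Ery to −2.40 and EryP against Eryb to −0.81, and thinning moved the latter to −1.23. Against HPSC, thinning moved G from −0.40 to −0.60, Mk from −0.43 to −0.57 and Hepa from −0.23 to −0.33, and the median cell moved G to −0.50 and Hepa to −0.37. Mo/KC against HPSC (−0.39), whose libraries agreed closely, moved to −0.39 without globin, −0.50 for the median cell, −0.38 with filtered cells, −0.45 with thinning, −0.39 with extended members, −0.39 without members that differ between libraries, −0.41 with free RNA subtracted and −0.38 at the common UMI minimum. Subtracting 10% free RNA, more than the limits above allow in Ery 6, moved Ery 6 against Ery 1 to −4.58 and EryP against Eryb to −2.02. It moved the count of departing members from 17 to 35 and of members that depart in a cell type from 8 to 25. That last count was 14 with extended members and 4 with at least 1000 genes and under 10% mitochondrial UMIs, which left 13 and 11 EryP cells. With library 1 alone the counts were 17 and 11, and with library 2 alone 20 and 10. The causes were not tested.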
